A study of Saccharomyces cerevisiae with 42 samples.

Results

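The genes described here are the enzymes of ergosterol synthesis in budding yeast (Saccharomyces cerevisiae), the proteins that work beside them and the transcription factors that regulate them. They were chosen by name and are 33 of the 6278 open reading frames on the arrays. The 33 comprise 7 genes of the mevalonate steps, 3 from isopentenyl diphosphate to squalene, 9 from squalene to zymosterol, 5 from zymosterol to ergosterol, 2 electron donors, 2 sterol acyltransferases and 5 regulators. A value in all 18 averaged level columns was present for 31 of them, and these 31 were tested among 5443 genes. MVD1 and ERG9 had no value in replicate 1 and are given separately.

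Transcript levels were measured on 42 printed two-colour arrays in 3 strains, hog1del, HOG1-CCAAX and HOG1-GFP, after 60 min in 1 M sorbitol and at 0 min, at 25 °C. The 6 groups had 3 biological replicates each, measured on 3 technical arrays in replicate 1 and on 2 in each of replicates 2 and 3. Every sample carried Cy3 and was hybridised against one Cy5-labelled reference pool. The stress-activated protein kinase Hog1 is deleted in hog1del, carries green fluorescent protein in HOG1-GFP, and carries in HOG1-CCAAX a lipid-attachment signal of the kind that holds proteins at membranes. The labels name the strains only by these alleles, so further markers and the number of clones behind each strain are unknown. Sorbitol raises the osmolarity of the medium. No culture was kept for 60 min without sorbitol, so the shock cannot be told apart from time and handling. A level below is log2 of the sample signal over the reference pool, and a response is the level at 60 min minus the level at 0 min in the same strain and replicate. RNA came from whole cultures, so fewer cells expressing a gene and less RNA per cell cannot be told apart.

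Ergosterol is the main sterol of fungal membranes. Acetyl-CoA is built into mevalonate and then squalene, squalene is closed to lanosterol, and lanosterol is trimmed and desaturated to ergosterol, with oxygen and haem needed at several of the later steps. The activators Upc2 and Ecm22 switch the genes on when sterol is short, Hap1 is a haem-dependent activator, and Mot3 and Rox1 repress sterol and hypoxic genes. In the literature on yeast osmostress, Hog1 is known to act through Mot3 and Rox1 in lowering sterol gene transcription.

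The strain labels were checked on HOG1 (YLR113W) first. Its level lay between -3.97 and -3.03 in all 6 hog1del samples, against -0.34 to 0.60 in the 12 samples of HOG1-CCAAX and HOG1-GFP. Column medians lay between -0.05 and 0.09, and the lowest correlation between 2 of the 18 level columns over genes was -0.46. Technical arrays of one sample differed more in replicate 1, where the median SD over the 33 genes was 0.19 to 0.30 per sample, against 0.04 to 0.07 in replicates 2 and 3.

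After 60 min in sorbitol genes from each of the 4 stretches between acetyl-CoA and ergosterol rose in hog1del, with ERG5, ROX1, ERG1, CYB5 and ERG3 rising most. In hog1del 15 of the 31 genes rose and HMG2 fell, at an adjusted p under 0.05, where 25.6% of all genes tested rose and 27.4% fell. In HOG1-CCAAX 13 rose and 2 fell, against 28.1% and 26.1% of all genes. In HOG1-GFP 7 rose and 4 fell, against 24.0% and 22.7% of all genes. The median response of the 31 genes was 0.46 in hog1del, 0.23 in HOG1-CCAAX and 0.12 in HOG1-GFP, and that of all genes tested was -0.01, 0.03 and -0.01 in the same strains. Mean responses ran hog1del above HOG1-CCAAX above HOG1-GFP in 16 of the 31 genes (51.6%) and in 1192 of the 5443 genes (21.9%), a count with no test. The median hog1del response of the 31 genes was 0.45, 0.50 and 0.49 in replicates 1, 2 and 3, against 0.07, 0.19 and 0.14 in HOG1-GFP. With the replicate number as a block, 10 genes rose and 8 fell in HOG1-GFP, where 33.5% and 32.6% of all genes did. Fits with fewer replicates moved the counts of all genes as well. In HOG1-GFP 12 rose and 7 fell without replicate 1 (36.2% and 33.1% of all genes), 4 rose and 1 fell without replicate 2 (11.2% and 10.6%), and 5 rose and 0 fell without replicate 3 (9.87% and 9.9%). In HOG1-CCAAX 7 rose and 2 fell without replicate 2 (13.7% and 12.3% of all genes), and 8 rose and 0 fell without replicate 3 (14.1% and 12.4%). Calls that held with each replicate left out in turn were 10 rises in hog1del (ERG1, ERG11, ERG26, ERG27, ERG29, ERG6, ERG3, ERG5, CYB5 and ROX1), 6 rises in HOG1-CCAAX (ERG1, ERG29, ERG6, ERG5, MOT3 and ROX1) and 4 rises in HOG1-GFP (ERG27, ERG29, ERG5 and MOT3), and no fall in any strain.

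**Figure D1:**
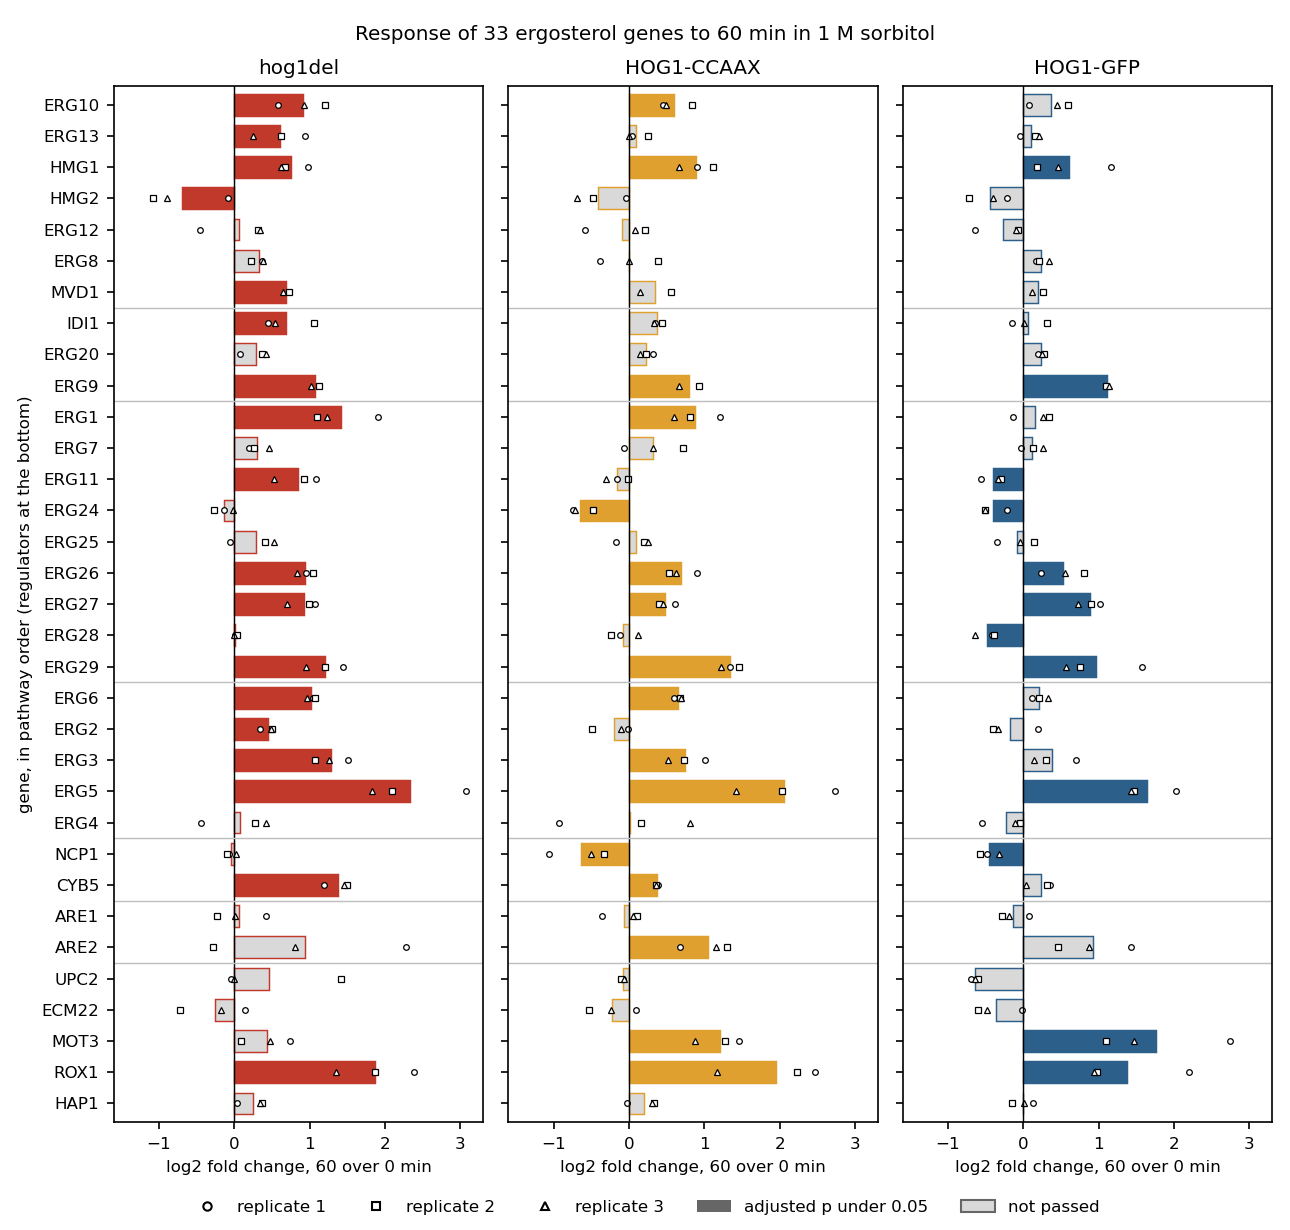
Mean log2 fold change (60 over 0 min, horizontal axis) of the 33 genes in pathway order, for hog1del, HOG1-CCAAX and HOG1-GFP. Bars are means, markers are the biological replicates, and filled bars passed at an adjusted p under 0.05 (MVD1 and ERG9, with replicates 2 and 3 only, in the fit over 5999 genes). ERG5 and ROX1 rose in all 3 strains, while ERG11 rose to 0.84 in hog1del and fell by 0.40 in HOG1-GFP.

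In the mevalonate steps the 2 reductase genes had mean responses of opposite sign in all 3 strains. HMG1, the main HMG-CoA reductase of aerobic cells and a rate-limiting enzyme, rose by 0.76 ± 0.19 in hog1del, 0.90 ± 0.22 in HOG1-CCAAX and 0.60 ± 0.50 in HOG1-GFP (SD, n = 3, adjusted p = 0.0074, 0.0030 and 0.0242 in the limma fit). The HOG1-GFP rise did not pass with quantile normalisation (adjusted p = 0.0535). Its paralogue HMG2, which is favoured when oxygen is low, fell by 0.69 ± 0.53 in hog1del (adjusted p = 0.0188) and stood at -0.40 ± 0.33 in HOG1-CCAAX and -0.45 ± 0.25 in HOG1-GFP, both not passed. In hog1del neither HMG1 nor HMG2 passed without replicate 2 (adjusted p = 0.0532 and 0.220) or without replicate 3 (0.0753 and 0.1995). Cross-hybridisation between the paralogues was not tested. ERG10, the acetoacetyl-CoA thiolase of the first step, rose by 0.90 ± 0.31 in hog1del and 0.59 ± 0.21 in HOG1-CCAAX (adjusted p = 0.0014 and 0.0114), against 0.37 ± 0.27 in HOG1-GFP (adjusted p = 0.0817, and 0.0080 with the replicate block). ERG13, the HMG-CoA synthase, rose in hog1del (0.60 ± 0.35, adjusted p = 0.0070) and had 0.10 ± 0.14 in HOG1-CCAAX and 0.11 ± 0.13 in HOG1-GFP. The 2 kinases of mevalonate, ERG12 and ERG8, passed in no strain, with mean responses between -0.27 and 0.32. With the replicate block ERG8 passed in hog1del (adjusted p = 0.0427), and in HOG1-GFP HMG2 and ERG12 passed as lower (adjusted p = 0.0075 and 0.0339). HMG2 also passed as lower in HOG1-CCAAX with the block (adjusted p = 0.0118).

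From isopentenyl diphosphate to squalene, IDI1, the isomerase, rose in hog1del by 0.68 ± 0.33 (adjusted p = 0.0041), against 0.37 ± 0.05 in HOG1-CCAAX (adjusted p = 0.0552, and 0.0097 with the block) and 0.06 ± 0.24 in HOG1-GFP. ERG20, the farnesyl diphosphate synthase from which side branches also draw, had 0.29 ± 0.19, 0.23 ± 0.09 and 0.23 ± 0.04 in hog1del, HOG1-CCAAX and HOG1-GFP and passed in none, but did in hog1del with the block (adjusted p = 0.0326). ERG9, the squalene synthase that commits farnesyl diphosphate to sterol, was measured in replicates 2 and 3 only. Its response was 1.12 and 1.02 in hog1del, 0.93 and 0.66 in HOG1-CCAAX, and 1.10 and 1.13 in HOG1-GFP. The hog1del response of ERG9 differed from that of HOG1-GFP by 0.03 and -0.11. In the fit of genes with at least 2 replicates per strain (5999 genes), ERG9 rose in each strain (adjusted p = 0.0018, 0.0059 and 0.0017). MVD1, the mevalonate diphosphate decarboxylase with the same gap, rose in hog1del in that fit (0.68 ± 0.06, n = 2, adjusted p = 0.0156), against 0.35 ± 0.29 in HOG1-CCAAX and 0.19 ± 0.10 in HOG1-GFP, both not passed. Its difference from HOG1-GFP did not pass in either strain.

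Between squalene and zymosterol, 5 of 9 genes rose in hog1del and none fell. In HOG1-CCAAX 4 rose and ERG24 fell, and in HOG1-GFP 3 rose and 3 fell. Of all genes tested, 25.6% rose and 27.4% fell in hog1del, 28.1% and 26.1% in HOG1-CCAAX, and 24.0% and 22.7% in HOG1-GFP. ERG26 and ERG27, a dehydrogenase and a reductase of the C-4 demethylation complex, and ERG29, a protein needed for the C-4 oxidase step, rose in all 3 strains. ERG29 rose by 1.20 ± 0.24 in hog1del, 1.34 ± 0.12 in HOG1-CCAAX and 0.97 ± 0.54 in HOG1-GFP. ERG24, the C-14 reductase, fell by 0.64 ± 0.15 in HOG1-CCAAX and by 0.41 ± 0.17 in HOG1-GFP (adjusted p = 0.0017 and 0.0198), and had -0.14 ± 0.13 in hog1del. ERG28, the scaffold of the C-4 complex, fell by 0.48 ± 0.13 in HOG1-GFP (adjusted p = 0.0079), against 0.01 ± 0.02 in hog1del and -0.08 ± 0.19 in HOG1-CCAAX. The C-4 oxidase ERG25 and the lanosterol synthase ERG7 passed in no strain, with means between -0.08 and 0.33. With the block both passed in hog1del (adjusted p = 0.0244 for ERG25 and 0.0428 for ERG7), and ERG7 in HOG1-CCAAX (adjusted p = 0.0316).

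Of the 5 genes from zymosterol to ergosterol, 4 rose in hog1del, 3 in HOG1-CCAAX and 1 in HOG1-GFP. Of all genes tested, 25.6%, 28.1% and 24.0% rose in the same strains. ERG5, the C-22 desaturase and a cytochrome P450, had the largest response of the enzymes in each strain. ERG5 levels in hog1del were 0.61, 0.97 and 0.78 at 60 min, against -2.46, -1.12 and -1.04 at 0 min. In HOG1-CCAAX they were 0.54, 0.59 and 0.34, against -2.19, -1.44 and -1.08. HOG1-GFP had -0.50, 0.29 and 0.31, against -2.53, -1.18 and -1.12. The 60 min and 0 min levels of ERG5 did not overlap in any strain, and replicate 1 was the lowest of the 0 min levels in each. Its rise was 5.03-fold in hog1del, 4.18-fold in HOG1-CCAAX and 3.12-fold in HOG1-GFP (adjusted p = 1.6e-04, 2.8e-04 and 0.0013). ERG3, the C-5 desaturase, rose by 1.28 ± 0.22 in hog1del and 0.75 ± 0.24 in HOG1-CCAAX (adjusted p = 1.5e-04 and 0.0029), against 0.38 ± 0.29 in HOG1-GFP (adjusted p = 0.0674, and 0.0077 with the block). ERG2, the C-8 isomerase, rose in hog1del by 0.44 ± 0.09 (adjusted p = 0.0321) and had -0.20 ± 0.25 in HOG1-CCAAX and -0.18 ± 0.32 in HOG1-GFP. ERG4, the last reductase, passed in no strain and ranged widely in HOG1-CCAAX, where its SD was 0.88.

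Of the 2 electron donors and 2 acyltransferases, CYB5 alone rose in hog1del and NCP1 alone fell in HOG1-GFP. Of all genes tested, 25.6% rose in hog1del and 22.7% fell in HOG1-GFP. NCP1, the NADPH-cytochrome P450 reductase that feeds the P450 enzymes, fell by 0.63 ± 0.38 in HOG1-CCAAX and 0.46 ± 0.12 in HOG1-GFP (adjusted p = 0.0055 and 0.0273), and had -0.05 ± 0.06 in hog1del. CYB5, cytochrome b5, which donates electrons to sterol and fatty acid oxidases, is described below. ARE2, the main sterol acyltransferase, had responses of 2.28, -0.29 and 0.81 in hog1del, which spanned zero, against 1.42, 0.47 and 0.87 in HOG1-GFP. It passed in HOG1-CCAAX at 1.05 ± 0.33 (adjusted p = 0.0455), but not with median centring (0.0556) or quantile normalisation (0.0980), and with the block it passed in hog1del and HOG1-GFP as well (adjusted p = 0.0163 and 0.0186). In replicate 2 of hog1del the technical arrays gave ARE2 levels of -0.55 and -0.51 at 60 min, so the low value stood on both. ARE1, its paralogue, had 0.06 ± 0.33, -0.06 ± 0.26 and -0.13 ± 0.18 in hog1del, HOG1-CCAAX and HOG1-GFP and passed in none.

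The question of what loss of Hog1 does to this response is put by the difference of response, hog1del minus HOG1-GFP. ERG1, ERG11, ERG6 and CYB5 had a larger response in hog1del, and none of the 31 genes had a smaller one that passed. That is 4 of 31, where 1.64% of all genes tested passed as higher and 0.937% as lower. Without the threshold, 29 of the 31 differences were above zero with a median of 0.37, where the median of all genes was -0.02. In 12 of the 31 genes all 3 hog1del responses lay above all 3 HOG1-GFP responses, where 12.0% of all genes did so, and in 1 gene all lay below, where 11.5% did. At an unadjusted p under 0.05 there were 12 of the 31 genes, 11 of them higher, and 861 of all genes.

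**Figure D2:**
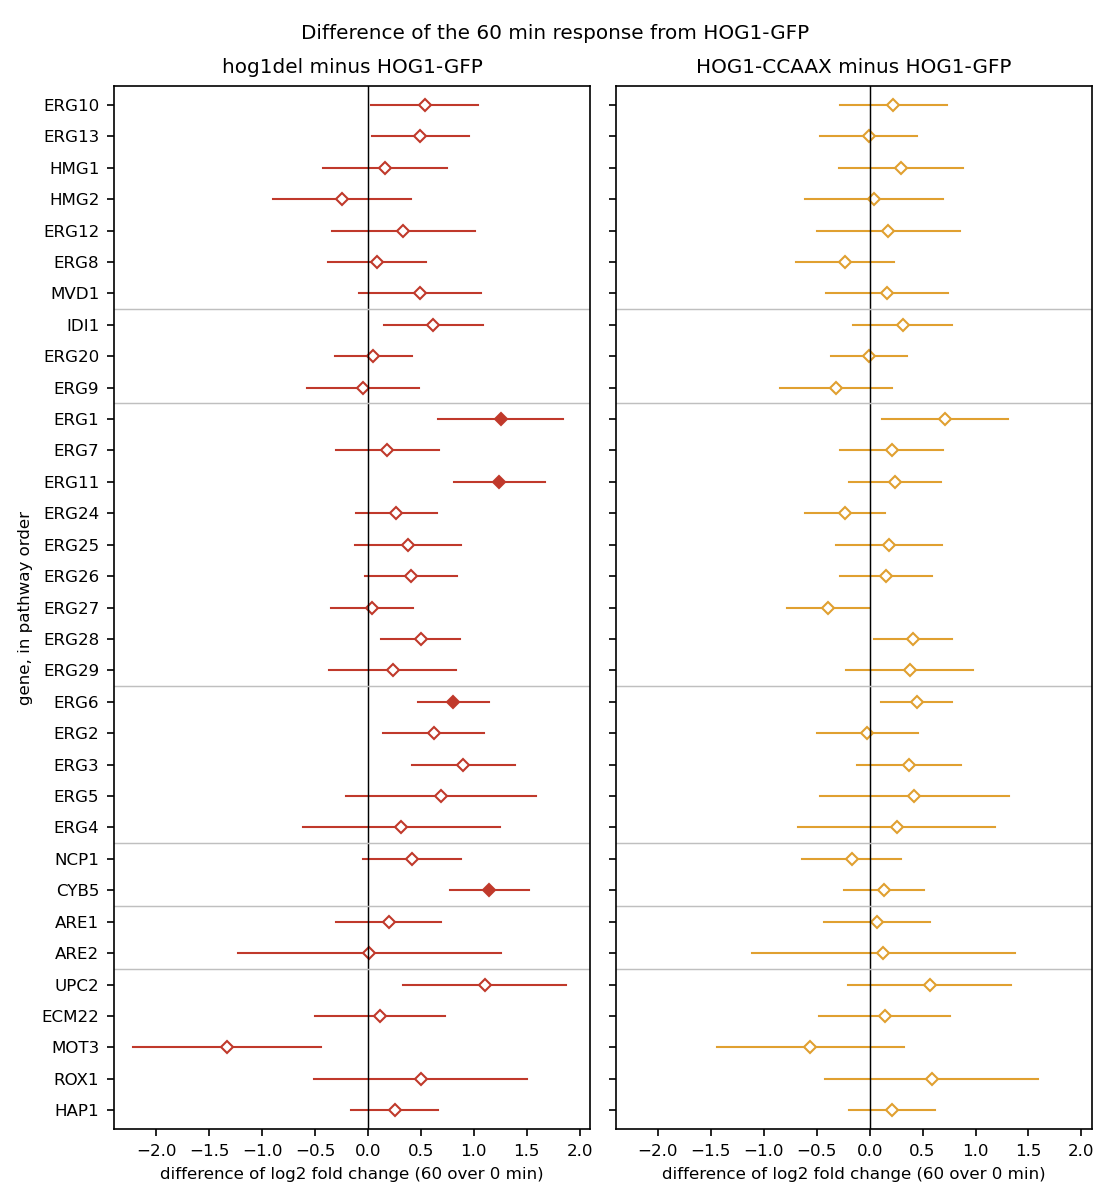
Difference of the 60 min response from HOG1-GFP for the 33 genes in pathway order, in hog1del and in HOG1-CCAAX. Points are mean differences of log2 fold change, lines their 95% intervals, and filled points passed at an adjusted p under 0.05. In hog1del most points lie above zero and MOT3 stands at -1.33, while in HOG1-CCAAX no point is filled.

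ERG1 (YGR175C) is squalene epoxidase, the first oxygen-using step and the target of terbinafine. In hog1del its level was 1.07, 0.20 and 0.31 at 60 min, against -0.84, -0.90 and -0.91 at 0 min in replicates 1, 2 and 3. HOG1-CCAAX had 0.61, -0.33 and -0.57, against -0.59, -1.14 and -1.17. Here 0.61 was the mean of technical arrays at -0.88, 1.41 and 1.31, which differed in sign. HOG1-GFP had -0.57, -0.81 and -0.94, against -0.44, -1.15 and -1.21. At 60 min the 3 hog1del levels lay above all HOG1-GFP levels, while at 0 min the strains overlapped. ERG1 rose 2.66-fold in hog1del and 1.83-fold in HOG1-CCAAX, and its change in HOG1-GFP was 0.16 ± 0.25 (adjusted p = 0.503). The response was larger in hog1del by 1.25 ± 0.69 (SD, n = 3, 95% interval 0.66 to 1.85, adjusted p = 0.0398), and this call was lost with quantile normalisation (adjusted p = 0.115).

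ERG11 (YHR007C) is lanosterol demethylase, the P450 enzyme inhibited by azole drugs. Levels in hog1del were 1.22, 0.29 and -0.02 at 60 min, against 0.14, -0.62 and -0.55 at 0 min. In HOG1-CCAAX they were 0.48, -0.72 and -0.85, against 0.64, -0.71 and -0.54. In HOG1-GFP they were -0.06, -1.08 and -0.98, against 0.49, -0.78 and -0.64. Replicate 1 was the highest in all 6 groups, and within each replicate hog1del was above HOG1-GFP at 60 min. ERG11 thus rose in hog1del (0.84 ± 0.28, adjusted p = 8.5e-04) and fell by 0.40 ± 0.14 in HOG1-GFP (adjusted p = 0.0365). The fall did not pass with quantile normalisation (adjusted p = 0.0670), without replicate 2 (0.177) or without replicate 3 (0.174). The difference was 1.24 ± 0.39 (95% interval 0.81 to 1.67, adjusted p = 0.0119).

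ERG6 (YML008C) is the C-24 methyltransferase, which gives fungal sterol its extra methyl group. Its levels in hog1del were 0.67, 0.44 and 0.50 at 60 min, against -0.37, -0.63 and -0.45 at 0 min. HOG1-CCAAX had 0.46, 0.11 and -0.02, against -0.14, -0.57 and -0.71. HOG1-GFP had -0.09, -0.41 and -0.20, against -0.20, -0.61 and -0.52. The 3 strains did not overlap in response, which was 0.96 to 1.07 in hog1del, 0.59 to 0.70 in HOG1-CCAAX and 0.11 to 0.33 in HOG1-GFP. The hog1del response was larger than that of HOG1-GFP by 0.81 ± 0.16 (95% interval 0.47 to 1.14, adjusted p = 0.0235).

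CYB5 (YNL111C) had levels of 1.74, 1.07 and 1.04 in hog1del at 60 min, against 0.55, -0.42 and -0.42 at 0 min. In HOG1-CCAAX they were 0.53, -0.10 and -0.07, against 0.14, -0.46 and -0.43. In HOG1-GFP they were 0.16, -0.46 and -0.51, against -0.20, -0.77 and -0.54. The HOG1-CCAAX response (0.36 to 0.39) was close to the highest of HOG1-GFP (0.04 to 0.36), and that of hog1del (1.19 to 1.49) lay apart from both. The narrow HOG1-CCAAX range depends on the 0 min level of replicate 3. Its technical arrays stood at -0.43 and 0.05, and the deposited level of -0.43 equalled the first. With both arrays averaged, the replicate 3 response of HOG1-CCAAX would be smaller. CYB5 rose 2.60-fold in hog1del and 1.29-fold in HOG1-CCAAX, where the call (adjusted p = 0.0246) was lost with quantile normalisation (0.0528) and with the per-array values (0.0729). The difference of response between hog1del and HOG1-GFP was 1.15 ± 0.29 (95% interval 0.77 to 1.52, adjusted p = 0.0081).

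**Figure D3:**
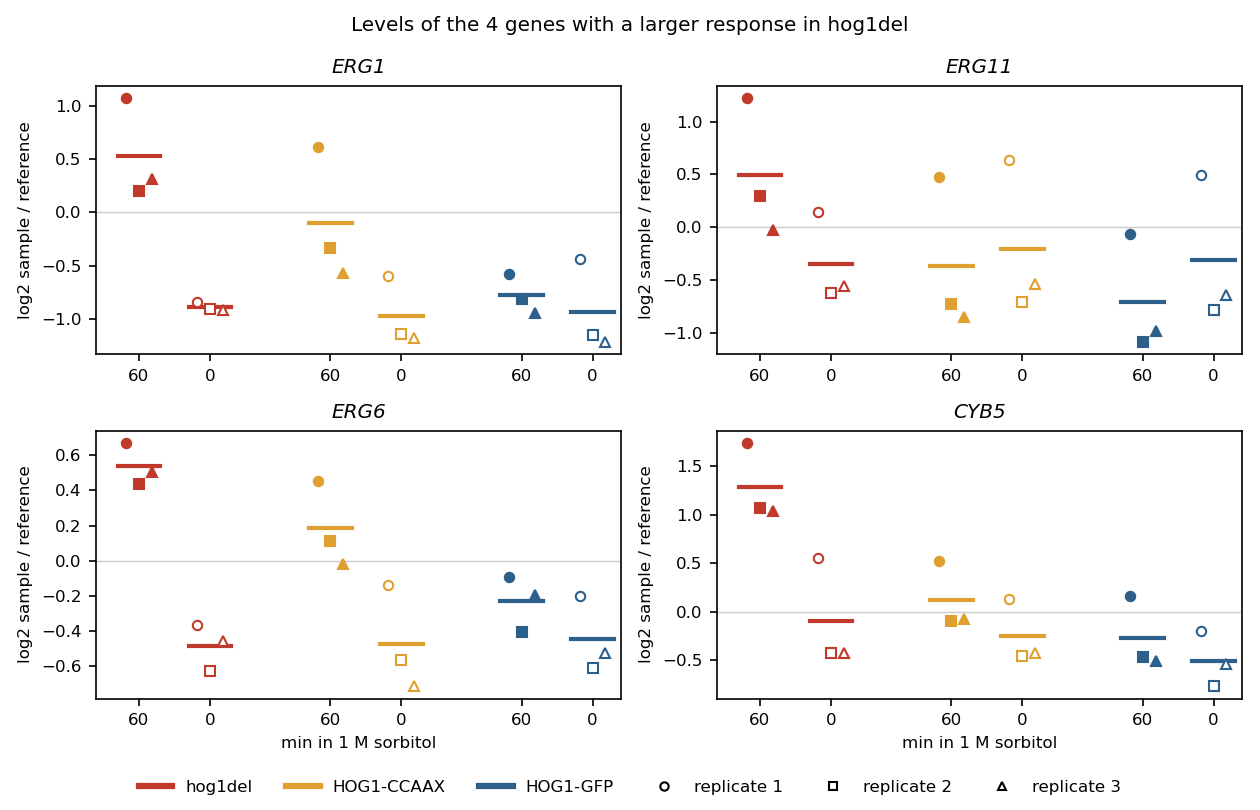
Levels (log2 sample over reference pool, vertical axis) of ERG1, ERG11, ERG6 and CYB5 at 60 and 0 min in hog1del, HOG1-CCAAX and HOG1-GFP. Markers are biological replicates (filled at 60 min, open at 0 min) and lines are means. The strains overlap at 0 min, and hog1del is above HOG1-GFP at 60 min in each gene.

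These calls rest on few replicates. With the replicate number as a block, 10 of the 31 genes had a larger response in hog1del and MOT3 a smaller one, where 7.28% and 7.5% of all genes did, and the genes added were ERG10 (adjusted p = 0.0318), IDI1 (0.0232), ERG2 (0.0408), ERG3 (0.0030), ERG5 (0.0251), UPC2 (0.0229) and MOT3 (0.0059). Without replicate 1, 7 were larger and MOT3 smaller, where 9.7% and 11.6% of all genes were. Without replicate 2 or without replicate 3 none of the 31 passed, and of all genes 2 and 0 did (0.0367% and 0.0%, all of them lower). The adjusted p without replicate 2 was 0.384 for ERG1, 0.344 for ERG11, 0.655 for ERG6 and 0.357 for CYB5, and the differences stayed above zero.

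Among the regulators, the repressor gene MOT3 (YMR070W) was lowest in hog1del after sorbitol. Its levels in hog1del were -0.23, -0.16 and -0.19 at 60 min, against -0.97, -0.25 and -0.66 at 0 min. HOG1-CCAAX had 0.19, 0.51 and 0.42, against -1.27, -0.77 and -0.45. HOG1-GFP had 1.68, 0.95 and 1.19, against -1.06, -0.14 and -0.27. At 60 min the 3 strains did not overlap, with hog1del lowest and HOG1-GFP highest, and at 0 min they did. MOT3 rose 2.30-fold in HOG1-CCAAX and 3.40-fold in HOG1-GFP (adjusted p = 0.0055 and 8.4e-04), and its change in hog1del was 0.43 ± 0.33 (adjusted p = 0.212, and 0.0445 with the block). The hog1del response was below that of HOG1-GFP by -1.33 ± 0.57 (SD, n = 3, 95% interval -2.21 to -0.45), with an adjusted p of 0.119, and 0.0059 with the block. The HOG1-CCAAX difference was -0.56 ± 0.74 (adjusted p = 0.879), with 1 of the 3 replicates above zero.

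The repressor gene ROX1 (YPR065W) rose in every strain. Its levels in hog1del were 0.77, 0.23 and 0.20 at 60 min, against -1.62, -1.64 and -1.15 at 0 min. In HOG1-CCAAX they were 0.73, 0.40 and 0.09, against -1.75, -1.83 and -1.08. In HOG1-GFP they were 0.57, -0.27 and -0.32, against -1.62, -1.25 and -1.26. The rise was 3.66-fold in hog1del, 3.88-fold in HOG1-CCAAX and 2.59-fold in HOG1-GFP (adjusted p = 0.0011, 7.6e-04 and 0.0065). The response differed from HOG1-GFP by 0.50 ± 0.36 in hog1del and 0.58 ± 0.58 in HOG1-CCAAX, neither passed (adjusted p = 0.643 and 0.921), and the 95% intervals ran from -0.51 to 1.50 and from -0.42 to 1.59.

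The activator gene UPC2 (YDR213W), whose product senses sterol, had levels of 0.10, 1.29 and 0.34 in hog1del at 60 min, against 0.14, -0.12 and 0.35 at 0 min. HOG1-CCAAX had 0.15, -0.35 and 0.34, against 0.22, -0.25 and 0.40. HOG1-GFP had -0.23, -0.99 and -0.49, against 0.46, -0.39 and 0.15. The 3 HOG1-GFP responses lay close together at -0.69, -0.60 and -0.64, the HOG1-CCAAX responses were near zero, and the hog1del responses were -0.04, 1.41 and 0.00. The high level in replicate 2 of hog1del at 60 min stood on both technical arrays (1.15 and 1.40). UPC2 in HOG1-GFP had an adjusted p of 0.0536, and 0.0121 as a fall with the block. The fall also passed with quantile normalisation (adjusted p = 0.0363) and without replicate 2 (0.0395). It did not pass with median centring (0.0553), without replicate 1 (0.0535) or without replicate 3 (0.228). The hog1del difference of response was 1.10 ± 0.79 (adjusted p = 0.142, and 0.0229 with the block), and the 2 other replicates gave 0.65 and 0.64.

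ECM22 (YLR228C), the paralogue of UPC2, had levels of 0.12, -0.39 and 0.05 in hog1del at 60 min, against -0.02, 0.34 and 0.23 at 0 min. In HOG1-CCAAX they were 0.04, -0.20 and -0.10, against -0.05, 0.33 and 0.13. In HOG1-GFP they were 0.07, -0.33 and -0.33, against 0.08, 0.28 and 0.15. The strains overlapped at both times. In replicate 1 the level was slightly higher at 60 min in hog1del and HOG1-CCAAX and nearly unchanged in HOG1-GFP. In replicates 2 and 3 it was lower at 60 min in every strain. Mean responses were -0.25 ± 0.44, -0.23 ± 0.31 and -0.37 ± 0.31 in hog1del, HOG1-CCAAX and HOG1-GFP, none passed, although the block gave a fall in hog1del and HOG1-GFP (adjusted p = 0.0467 and 0.0090). The difference between hog1del and HOG1-GFP was 0.11 ± 0.21 (95% interval -0.50 to 0.73).

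HAP1 (YLR256W), the haem-responsive activator gene, had levels of 0.17, 0.39 and 0.37 in hog1del at 60 min, against 0.13, 0.02 and 0.04 at 0 min. HOG1-CCAAX had 0.11, 0.31 and 0.42, against 0.14, -0.02 and 0.11. HOG1-GFP had 0.11, -0.16 and 0.02, against -0.01, 0.00 and 0.00. The HAP1 responses overlapped between the strains, while all hog1del levels lay above those of HOG1-GFP at both times. None of its responses or differences passed in the main fits, those of level included, the hog1del difference of response being 0.25 ± 0.31 (adjusted p = 0.555). Without replicate 1, HAP1 passed as a rise in hog1del and in HOG1-CCAAX. In that fit its 60 min levels in both strains also passed as above HOG1-GFP.

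**Figure D4:**
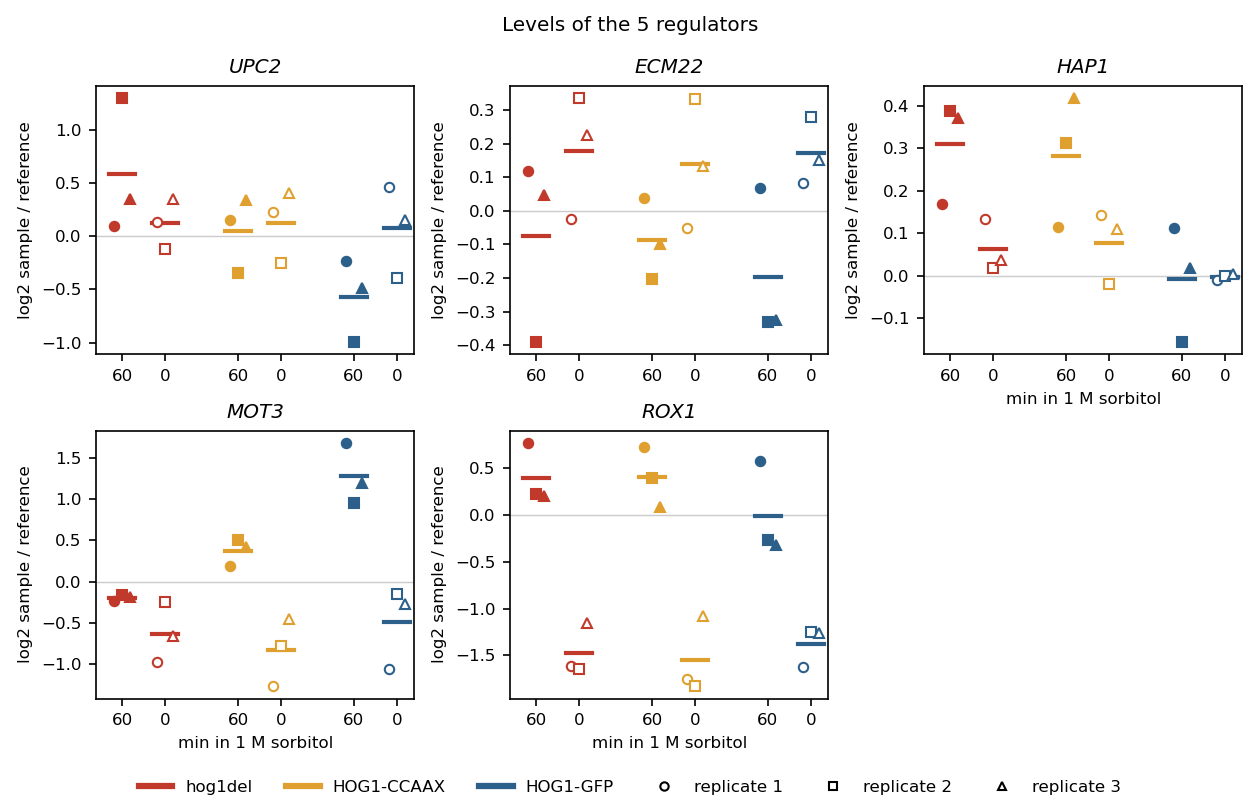
Levels (log2 sample over reference pool) of the 5 regulator genes at 60 and 0 min in hog1del, HOG1-CCAAX and HOG1-GFP. Markers are biological replicates and lines are means, on a separate axis for each gene. MOT3 at 60 min is lowest in hog1del and highest in HOG1-GFP, and 1 replicate of hog1del stands above the others for UPC2.

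The HOG1-CCAAX strain addresses what Hog1 with a membrane signal does to the response. None of the 31 genes passed in the difference HOG1-CCAAX minus HOG1-GFP, where 0.129% of all genes passed as higher and 0.202% as lower, and 4 were under an unadjusted p of 0.05, 3 of them higher, where 416 of the 5443 genes were. Among 31 differences 23 were above zero, the median was 0.18 and that of all genes 0.01. The largest was that of ERG1 at 0.71 ± 0.55 (95% interval 0.12 to 1.31, adjusted p = 0.491), followed by ROX1 and UPC2. In replicate 1, the ERG1 level in HOG1-CCAAX at 60 min rested on technical arrays at -0.88, 1.41 and 1.31. ERG6 stood 0.44 ± 0.07 above HOG1-GFP (95% interval 0.11 to 0.78, adjusted p = 0.412), with all 3 replicates higher. In 5 of the 31 genes all HOG1-CCAAX responses lay above those of HOG1-GFP, where 7.86% of all genes did, and in 1 gene all lay below, where 5.2% did. Without replicate 1, ERG29 passed as higher, where 4.96% of all genes did and 3.99% passed as lower.

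Against hog1del, none of the 31 HOG1-CCAAX responses passed either, where 0.0367% of all genes passed as higher and 0.0919% as lower, while 9 were under an unadjusted p of 0.05, none of them higher, where 426 of the 5443 genes were. The median difference was -0.25, where that of all genes was 0.04, and 23 of 31 were below zero. CYB5 stood at -1.01 ± 0.18 (adjusted p = 0.0703) and the 95% interval of ERG11 ran from -1.43 to -0.57 (adjusted p = 0.125), and both passed with the block (adjusted p = 0.0088 and 0.0117), where 1.1% of all genes passed as lower and 1.45% as higher. In 10 of the 31 genes all HOG1-CCAAX responses lay below those of hog1del, where 6.3% of all genes did, and in 1, MOT3, all lay above, where 7.51% did. Without replicate 1, ERG11, ERG2 and CYB5 passed as lower and MOT3 as higher, where 4.15% and 5.03% of all genes did.

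Before sorbitol no sterol gene passed between the strains. At 0 min none of the 31 genes passed in hog1del minus HOG1-GFP, where 0.57% of all genes were called higher and 0.367% lower, nor in HOG1-CCAAX minus HOG1-GFP, where 0.184% and 0.0919% were. Unadjusted p-values under 0.05 were found in limma for 6 and 5 of the 31 genes, and for 596 and 467 of the 5443 genes, in the hog1del and HOG1-CCAAX comparisons. The median difference was 0.05 in hog1del and 0.08 in HOG1-CCAAX. Among the single genes CYB5 stood highest in hog1del, at 0.41 ± 0.32 (adjusted p = 0.196), and MOT3 lowest in HOG1-CCAAX, at -0.34 ± 0.25 (adjusted p = 0.500).

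After 60 min in sorbitol 19 of the 31 genes were higher in hog1del than in HOG1-GFP and MOT3 was lower, where 13.9% and 13.3% of all genes were. The 19 included 8 of the 9 genes from squalene to zymosterol, 4 of the 5 genes after zymosterol and both electron donors, but neither acyltransferase. The largest were CYB5, 2.93-fold higher (1.55 ± 0.03, SD over replicates, n = 3, adjusted p = 6.2e-06), MOT3, 2.76-fold lower (-1.47 ± 0.41, adjusted p = 2.6e-04), ERG1, 2.46-fold higher (1.30 ± 0.32, adjusted p = 3.3e-04) and ERG11, 2.31-fold higher (1.21 ± 0.22, adjusted p = 1.1e-04). ERG3, ERG2, ERG28, ERG6 and ERG5 were higher by 0.76 to 1.03. UPC2 was 1.15 ± 1.02 higher (adjusted p = 0.0216), a value to which replicate 2 gave 2.29 and replicates 1 and 3 gave 0.33 and 0.84. ROX1 was 0.41 ± 0.18 higher (adjusted p = 0.0416), while ECM22 (0.12 ± 0.22) and HAP1 (0.32 ± 0.25) did not pass. ERG27, ERG4, ERG20, ERG13, ERG8, ERG12, HMG2, ARE1 and ARE2 did not pass, with differences between -0.23 and 0.36. Without the block on replicate, 6 genes and MOT3 passed, where 4.59% of all genes were called higher and 3.42% lower, with 7 and MOT3 without replicate 2 (5.95% and 3.95% of all genes) and 8 and MOT3 without replicate 3 (3.95% and 3.03%). MOT3 and 7 genes, ERG1, ERG11, ERG28, ERG6, ERG2, ERG3 and CYB5, passed with each replicate left out in turn.

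HOG1-CCAAX at 60 min had 7 of the 31 genes above HOG1-GFP and MOT3 below, where 6.72% and 4.65% of all genes were. Among the genes that passed, the largest differences were MOT3, 1.87-fold lower (-0.90 ± 0.53, adjusted p = 0.0103), ERG1, 1.60-fold higher (0.68 ± 0.44, adjusted p = 0.0253), ERG28, 1.60-fold higher (0.67 ± 0.25, adjusted p = 0.0086) and ERG29, 1.52-fold higher (0.61 ± 0.27, adjusted p = 0.0154). For ERG1, the technical arrays of replicate 1 in HOG1-CCAAX differed in sign, at -0.88, 1.41 and 1.31. HMG1, ERG3, ERG7 and CYB5 were also higher, by 0.39 to 0.57. UPC2 stood at 0.62 ± 0.23 and did not pass (adjusted p = 0.233). With quantile normalisation the calls of ERG1 (adjusted p = 0.0585) and CYB5 (adjusted p = 0.0980) were lost. With each column centred on its median, the series-wide split of higher and lower calls turned from 366 and 253 to 263 and 307, and 6 genes and MOT3 still passed. Without the block none of the 31 passed in limma, where 1.21% of all genes were called higher and 0.735% lower. Without replicate 2 MOT3 alone passed (1.86% and 1.69% of all genes), and without replicate 3 none did (1.23% and 0.974%).

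Other gene lists near the pathway were read in the same fit. In the hog1del minus HOG1-GFP response, 1.64% of all genes passed as higher and 0.937% as lower, and 7.28% and 7.5% with the block. Of 15 tested genes of sterol uptake, storage and transport, none passed in the main fit of this difference. The median difference was 0.15, and 6 of the 15 were below zero, the lowest at -0.43. YEH1, a steryl ester hydrolase, had 1.23 ± 0.34 (adjusted p = 0.119, and 0.0030 with the block) and ATF2, an acetyltransferase that acts on sterols, had 0.94 ± 0.45 (adjusted p = 0.174, and 0.0066 with the block). HES1, an oxysterol-binding protein homologue that lacked some levels, had 0.98 ± 0.19 (adjusted p = 0.182 over 5999 genes). Of 11 tested genes of the isoprenoid side branches and of reductase turnover, none passed in the main fit. The median was 0.11, and 3 of the 11 were below zero, the lowest at -0.29. RAM1, a subunit of the protein farnesyltransferase, had 0.74 ± 0.18 (adjusted p = 0.0543, and 0.0080 with the block), SRT1, a prenyltransferase of dolichol synthesis, 0.63 ± 0.55 (adjusted p = 0.364), and DAP1, a haem-binding partner of Erg11, 0.57 ± 0.29 (adjusted p = 0.128, and 0.0316 with the block).

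Transcription of hypoxic genes is held down in air in part by Rox1 and Mot3. Of 7 tested hypoxic genes, 4 had a larger response in hog1del than in HOG1-GFP, where 1.64% of all genes did. None had a smaller one that passed, where 0.937% of all genes did. The median difference was 1.11, and 1 of the 7 differences was below zero, at -0.22. TIR1, a cell wall mannoprotein gene, rose 2.87-fold in hog1del and 1.49-fold in HOG1-CCAAX and fell 1.72-fold in HOG1-GFP. Its difference was 2.30 ± 0.35 in hog1del (adjusted p = 9.2e-04) and 1.36 ± 0.49 in HOG1-CCAAX (adjusted p = 0.0370). In HOG1-CCAAX its level stood above that of HOG1-GFP by 0.77 ± 0.50 at 60 min (adjusted p = 0.0184) and differed by -0.59 ± 0.08 at 0 min (adjusted p = 0.0173), so both times enter that difference. OLE1, the fatty acid desaturase that takes electrons from cytochrome b5, differed by 1.46 ± 0.47 in hog1del (adjusted p = 0.0150). HEM13, coproporphyrinogen oxidase of haem synthesis, differed by 1.26 ± 0.34 (adjusted p = 0.0398), where its response was -0.12 ± 0.51 in hog1del and a fall of 1.38 ± 0.17 in HOG1-GFP. AAC3, a mitochondrial ADP/ATP carrier named after its value was seen, differed by 1.11 ± 0.25 (adjusted p = 0.0305). With the replicate block 5 of the 7 passed in hog1del, with CYC7, a cytochrome c isoform gene, added (0.83 ± 0.55, adjusted p = 0.0202). With that block 7.28% of all genes passed as higher. In HOG1-CCAAX the block gave 3, TIR1, CYC7 (1.49 ± 0.41, adjusted p = 0.0032) and OLE1 (1.09 ± 0.63, adjusted p = 0.0190), against TIR1 alone without it. Over all 5443 genes, 108 passed as higher in HOG1-CCAAX with the block and 7 without it. COX5B and CYC7 rose in all 3 strains, and both were named after their values were seen. In the HOG1-GFP response 2 of the 7 rose and 3 fell, where 24.0% and 22.7% of all genes did. In the response differences from HOG1-GFP, the hog1del call of HEM13 was lost with median centring (adjusted p = 0.0511). There the HOG1-CCAAX call of TIR1 was lost with quantile normalisation (adjusted p = 0.0693). Without replicate 2 or without replicate 3 none of the hypoxic genes passed in either response difference. Of all genes, 0 were then higher and 2 lower in hog1del without replicate 2, and 0 and 0 without replicate 3. In HOG1-CCAAX 0 and 0 of all genes passed in both fits.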

How the data were processed

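The values used were log2 ratios. Per the labels, RNA was extracted with a kit, amplified, and hybridised as Cy3-labelled sample against a Cy5-labelled reference pool whose composition is not given. The authors deposited log2 levels averaged over technical arrays as reference over sample, and their signs were turned here so that a positive level lies above the pool. The deposited per-array log2 values, as sample over reference, matched these levels after averaging (r 0.9973 to 1.0000 over genes), and the deposited 60 minus 0 min differences matched those computed here within 5.0e-07. Of background correction, dye scaling and spot filters the sources used here say nothing. All arrays had one dye orientation, so a dye effect specific to a gene is shared by all samples.

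Tests used limma 3.58.1 in R 4.3.3 (summaries in Python 3.11.15 with pandas 2.3.3) over the 5443 genes with all 18 levels, with Benjamini-Hochberg adjustment and a threshold of 0.05. The fit of the response difference was tested on simulated data. Responses were fitted by strain on 9 within-replicate fold changes, and levels at each time with the replicate number as a block. Deviations of samples with equal numbers correlated at 0.44 to 0.82 (fold changes), 0.74 to 0.91 (0 min) and 0.46 to 0.80 (60 min). Those of unequal numbers correlated at most at 0.61, 0.81 and 0.68. On this basis equal numbers were taken as pairs in the level fits and in the SDs of differences. The main fits of responses and of response differences left this pairing out, and the replicate block put it in. The labels call the replicates biological without saying what replicates of a number share, and p-values measure only the spread between these samples. The number of arrays limits the precision.

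The 33 genes and the other lists were chosen with earlier results of these data known. All 33 could be named, and full values were given for genes passing a response difference from HOG1-GFP, for the 5 regulators, for up to 4 genes per level comparison and for the 3 genes of each other list with the largest difference between hog1del and HOG1-GFP. ERG5, which that rule does not single out, was given in every sample after its values were seen. Alternatives were the replicate block or its absence, median centring, quantile normalisation, genes with at least 2 replicates per strain, the per-array values, and each replicate left out in turn.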

Additional observations from a re-analysis of the deposited data

Results flagged for a closer look

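The 60 min response differed between hog1del and HOG1-GFP, by the test of the difference itself, in 4 of the 31 genes tested. Over all genes, 1.64% passed as higher and 0.937% as lower. The difference of log2 response was 1.25 for ERG1, 1.24 for ERG11, 0.81 for ERG6 and 1.15 for CYB5, each with all 3 replicates higher in hog1del. None of the 4 passed without replicate 2 or without replicate 3, and all passed without replicate 1 and with the replicate block.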

How the results depend on the processing

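Among the 31 genes, 11 were called in the HOG1-GFP response. With the replicate block 18 were, and with one replicate left out 5 to 19. The 18 stood beside 1822 higher and 1773 lower calls among all 5443 genes, and the 19 beside 1969 and 1801. In the hog1del response 15 rose and 1 fell, and 21 and 2 with the block, where 1867 and 1933 of all genes did. Without replicate 1 these were 22 and 2 (1961 and 2022 of all genes). Without replicate 2 they were 12 and 0 (715 and 620), and without replicate 3 11 and 0 (611 and 583). In the HOG1-CCAAX response 15 were called, and 8 to 22 with one replicate left out. The 22 came without replicate 1, where 2148 of the 5443 genes rose and 1883 fell. The 8 came without replicate 3, where 767 rose and 676 fell. For the response difference hog1del minus HOG1-GFP the count was 4, and 11 with the replicate block and 0 to 8 with one replicate left out. For HOG1-CCAAX minus HOG1-GFP it was 0, and 0 to 1 with one left out. For HOG1-CCAAX minus hog1del it was 0, and 2 with the replicate block and 0 to 4 with one left out. At 60 min, hog1del minus HOG1-GFP gave 20, and 7 with no replicate block and 8 to 21 with one left out. HOG1-CCAAX minus HOG1-GFP gave 8, and 0 with no replicate block and 0 to 9 with one left out. The 21 and the 9 came without replicate 1. There, of 5443 genes, 965 were higher and 1047 lower in hog1del, and 558 and 411 in HOG1-CCAAX. Both 0 min comparisons stayed at 0 under every alternative run. The replicate block changed no call of the 31 genes beyond those named. Over all genes, it moved the higher and lower calls of hog1del minus HOG1-GFP from 89 and 51 to 396 and 408, of HOG1-CCAAX minus HOG1-GFP from 7 and 11 to 108 and 76, and of HOG1-CCAAX minus hog1del from 2 and 5 to 79 and 60. Of the values of single genes under the alternatives, 2297 kept their side of the threshold, 116 no longer passed and 67 newly passed, with no change of direction for a called value. The cause of these shifts was not tested, beyond the fewer samples of the fits that leave one replicate out.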

Other observations

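The enzymes that use molecular oxygen, grouped so after the values were seen and given with no test, had differences of response between hog1del and HOG1-GFP of 1.25 for ERG1, 1.24 for ERG11, 0.37 for ERG25, 0.90 for ERG3 and 0.69 for ERG5. In HOG1-CCAAX against HOG1-GFP the same genes had 0.71, 0.24, 0.18, 0.37 and 0.42. The medians of all 31 genes tested were 0.37 in hog1del and 0.18 in HOG1-CCAAX. Genes outside this group also had large differences, such as ERG6 with 0.81 in hog1del, so the values do not set the group apart. ERG3 had an adjusted p of 0.0662 in hog1del, and ERG25 and ERG5 did not pass either.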
